A study of Mus musculus with 2 samples.

Results

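The genes described here encode the enzymes and regulators that remove peroxides and superoxide and keep thiols reduced: peroxiredoxins, glutathione peroxidases, superoxide dismutases, catalase, the thioredoxin and glutaredoxin systems, glutathione synthesis and transfer, methionine sulfoxide repair and the NRF2 axis. The list names 40 genes and was made with earlier results of these data known. A gene was taken when the platform annotation gave its symbol alone to at least 1 probe set, a step that used no measured value. This step found 37 genes with 80 probe sets, of 18194 genes with 34958 such probe sets in the whole table. Prdx1 was matched only by probe sets shared with another gene, and Prdx5 and Prdx6 were not analysed here. The cells were neutrophils from the bone marrow of C57BL/6 mice, an inbred strain, sorted as DAPI-negative (live), Gr-1-high and CD48-negative, in 2 independent experiments called replicate 2 and replicate 1. The design holds 1 group of freshly isolated cells with no treatment and no control. RNA from each experiment (200 ng) was read on 1 expression array, and the labels do not say how many animals each sample came from.

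As background, neutrophils make superoxide with the phagocyte NADPH oxidase, and superoxide dismutases turn it into hydrogen peroxide. Catalase, glutathione peroxidases and peroxiredoxins then remove the peroxide. Glutathione peroxidases are recharged by glutathione and glutathione reductase, and most peroxiredoxins by thioredoxin and thioredoxin reductase, both at the cost of NADPH. The transcription factor NRF2 (gene Nfe2l2), held down by KEAP1, switches on many of these genes through a short DNA element called the antioxidant response element.

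Values are linear MAS5 signals, in arbitrary units, of the brightest probe set of each gene. Background was set at 131 on replicate 2 and 108 on replicate 1, the 95th percentile of 87 probe sets for sensory receptors, which served as a stand-in for absent transcripts, and a gene passed where it exceeded both. Probe sets bind with different strengths, so no gene's signal is ranked against another's. Of the neutrophil markers 11 of 11 measured genes were above background, 9 of them higher on replicate 2, such as S100a8 (64632 on replicate 2 and 36506 on replicate 1) and Ltf (33399 and 18878, in the same order). The other 2 were lower there, Cxcr2 (3224 on replicate 2 and 7212 on replicate 1) and Csf3r (4670 and 7951). The proliferation list stood apart between the experiments: replicate 2 was the higher array for all 10 of its genes that passed on both, and its summed signal over 19 measured genes was 12913 on replicate 2 and 3148 on replicate 1. In the stem and progenitor list 2 of 8 measured genes passed, Kit and Myb, both over 2-fold higher on replicate 2. Its summed signal was 1975 on replicate 2 and 948 on replicate 1, mostly from Kit (547 and 244, in the same order) and Myb (945 and 253). The genes that did not pass shared no direction: Cd34, Hlf and Mecom were higher on replicate 2, and Flt3, Meis1 and Gata2 lower. In the macrophage list 3 of 10 passed, all 3 lower on replicate 2, though Vcam1 was nearly level (255 on replicate 2 and 260 on replicate 1). The summed signal of that list was 1038 on replicate 2 and 1735 on replicate 1, and its genes that did not pass shared no direction. In the monocyte list 3 of 8 passed and did not share a direction: Csf1r was lower on replicate 2 (1928 on replicate 2 and 5020 on replicate 1), Ccr2 higher (220 and 157) and F13a1 close (231 and 264). The 7 monocyte genes without Csf1r summed to 757 on replicate 2 and 754 on replicate 1. In the eosinophil list 1 of 5 passed, in the B cell list 1 of 10 and in the T and NK cell list 1 of 7.

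Most of the antioxidant genes were above background in these neutrophils. On both arrays 29 of 37 measured genes (78.4%) passed, where 40.4% of all measured genes did (7354 of 18194). Of the other 8 genes, Gstm1 was above background on replicate 2 alone, and Prdx4, Gpx3, Gpx7, Sod3, Txnrd2, Glrx3 and Gclc were above it on neither array. By role, 3 of 3 NRF2 axis genes, 2 of 2 methionine sulfoxide reductases, 6 of 7 thioredoxin system genes and 5 of 6 glutathione transferases passed. So did 3 of 4 superoxide dismutase and catalase genes, 3 of 4 glutaredoxins, 3 of 4 glutathione synthesis and reduction genes, 2 of 4 glutathione peroxidases and 2 of 3 peroxiredoxins. With 1 group and no control, these counts are a description of the 2 arrays, without a test. The list was made with earlier results of these data known.

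**Figure D1:**
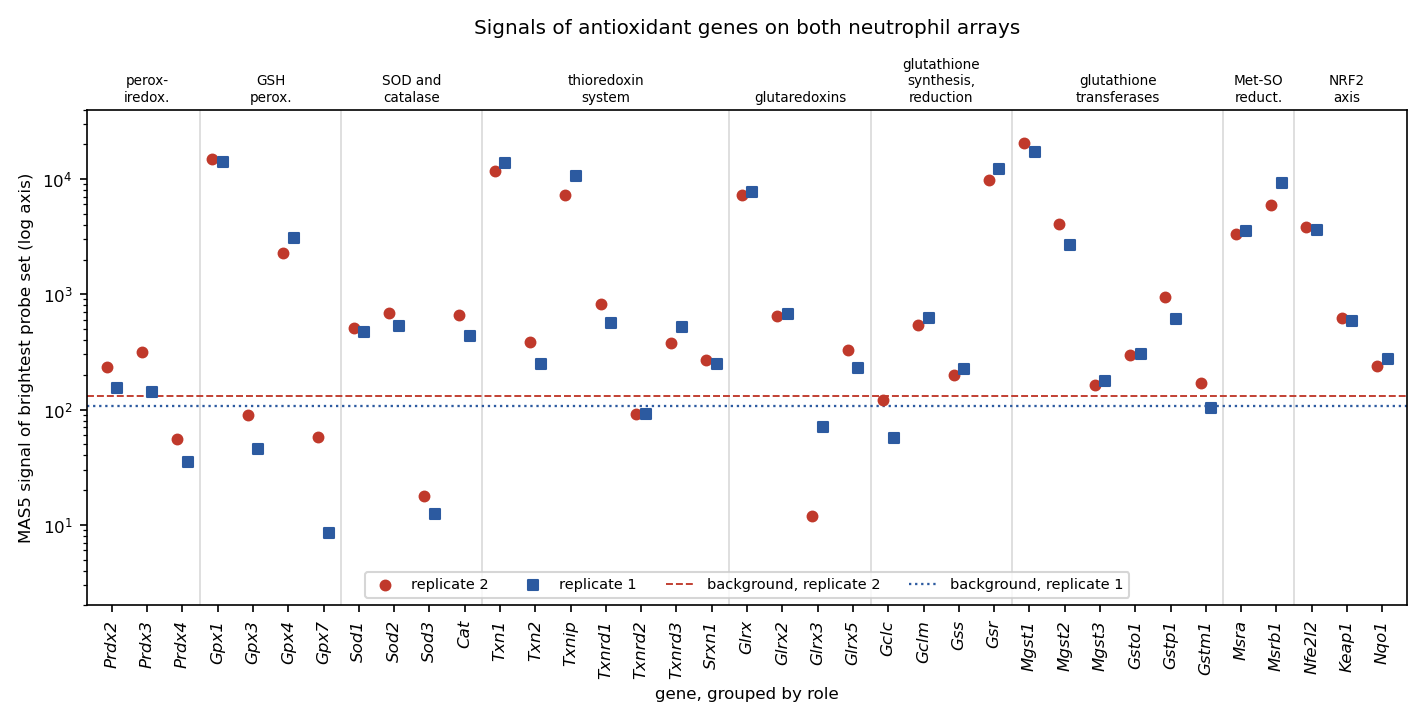
MAS5 signal (log axis) of the brightest probe set of each of the 37 measured genes, grouped by role, on replicate 2 (red circles) and replicate 1 (blue squares); the dashed and dotted lines are the background of replicate 2 (131) and replicate 1 (108). In 29 genes both points lie above their lines, and the paired points mostly lie close together.

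Differences between the experiments are log2 signal of replicate 2 minus replicate 1. They compare 1 array with 1 array, which allows neither a check by replicates nor a p-value. The antioxidant genes as a set did not lean to either experiment: 15 of the 29 were higher on replicate 2 and 14 lower, with a median difference of 0.09, against a median of 0.07 over all 7354 genes above background, of which 56.3% were higher on replicate 2. The SD of the difference was 0.43 over the 29 genes and 0.50 over all genes. Within 0.5 on the log2 scale lay 19 of the 29 (65.5%), and 73% of all genes. Of the 29 genes 1, Prdx3, was over 2-fold higher on replicate 2, where 3.43% of all genes were, and none was over 2-fold higher on replicate 1, where 1.97% were. In either direction this was 3.45% of the 29 genes, where 5.4% of all genes passed 2-fold. All signs below are relative to the deposited scaling. After scaling to the hybridisation controls (control transcripts added at the hybridisation step), the median of all genes was -0.65 and that of the 29 genes was -0.63. Under it every one of the 29 except Prdx3 was lower on replicate 2. This scaling moves every gene by the same amount, 0.72 on the log2 scale, so it leaves each gene's place relative to the others as it was, with 15 of the 29 above the median of all genes. Fewer cells of a type and less RNA per cell cannot be told apart in such sorted bulk samples.

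**Figure D2:**
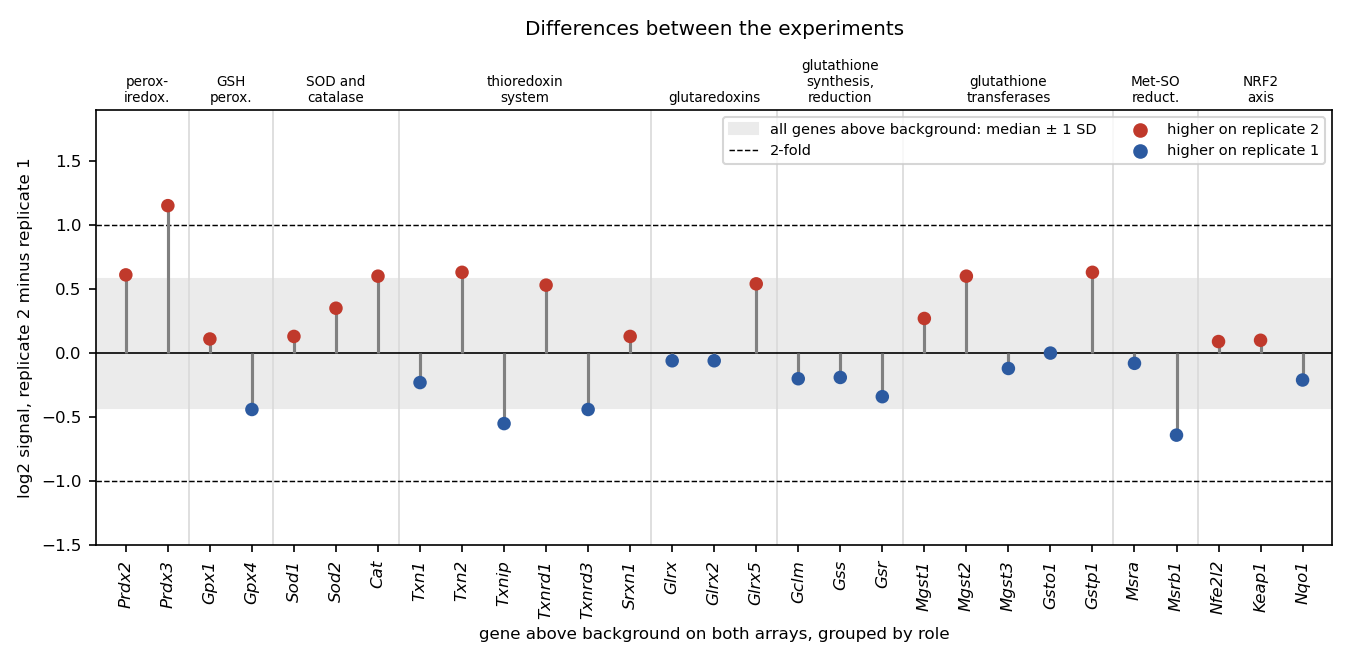
Log2 signal of replicate 2 minus replicate 1 for the 29 genes above background on both arrays, grouped by role; the grey band is the median ± 1 SD of all 7354 genes above background (0.07 ± 0.50) and the dashed lines mark 2-fold. Prdx3 at 1.15 is the one point beyond a dashed line.

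The peroxiredoxins, which reduce hydrogen peroxide through a reactive cysteine, were read for Prdx2, Prdx3 and Prdx4. Prdx3, the mitochondrial member, had 317 on replicate 2 and 143 on replicate 1, a 2.22-fold difference (log2 1.15). Its replicate 1 signal lay close above the background of 108, and it has 1 probe set. With 32 added to the signal its log2 difference was 1.00, and after scaling to the hybridisation controls it was 0.43. Prdx2, a cytosolic member known for its abundance in red cells, had 234 on replicate 2 and 153 on replicate 1 (log2 difference 0.61), while 1 further probe set of the gene was below background on both arrays. Prdx3 and Prdx2 were thus higher on the array with the higher proliferation signals and the higher Kit and Myb signals. Kit and Myb do not stand for their list, whose genes that did not pass shared no direction. Other antioxidant genes were higher on that array too, such as Txn2 and Gstp1 (both 0.63), while 14 of the 29 were lower there. The part of proliferating or progenitor cells in the Prdx3 and Prdx2 differences was not tested. The erythroid list had 3 of 9 measured genes above background, of which 2 were higher on replicate 2 (median log2 difference 0.14), and its summed signal was 1070 on replicate 2 and 1243 on replicate 1. Its part in the Prdx2 difference was not tested. Prdx4, the peroxiredoxin of the endoplasmic reticulum, had 55.5 on replicate 2 and 34.8 on replicate 1, below background on both arrays in all 4 of its probe sets.

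Glutathione peroxidases reduce peroxides with glutathione, and the products of Gpx1, Gpx3 and Gpx4 carry selenocysteine. Gpx1, the cytosolic form, had 15024 on replicate 2 and 13908 on replicate 1, a level of 13.82 ± 0.08 on the log2 scale (SD, n = 2). The arrays differed there by 1.08-fold. Gpx4, which reduces lipid hydroperoxides in membranes, had 2268 on replicate 2 and 3083 on replicate 1 (log2 difference -0.44), and its second probe set gave -0.76. Gpx3, the secreted form, had 89.3 on replicate 2 and 45.4 on replicate 1. Gpx7, which lacks selenocysteine, had 57.5 on replicate 2 and 8.45 on replicate 1. Neither was above background on either array, so no fold is given for them.

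The superoxide dismutases of the cytosol and the mitochondria were above background and the extracellular one was not. Sod1, the copper and zinc enzyme of the cytosol, had 512 on replicate 2 and 469 on replicate 1, a level of 8.94 ± 0.09 on the log2 scale (SD, n = 2). Of its 5 probe sets 2 were above background on both arrays, with log2 differences of 0.13 and 0.21. Another, above background on replicate 1 alone (118 on replicate 2 and 134 on replicate 1), gave -0.18. Sod2, the manganese enzyme of mitochondria, had 681 on replicate 2 and 535 on replicate 1 (log2 difference 0.35), and a second probe set gave 0.36. Sod3 had 17.7 on replicate 2 and 12.5 on replicate 1, below background on both. Cat, encoding catalase, had 661 on replicate 2 and 435 on replicate 1, a log2 difference of 0.60. Its other probe set, at 506 on replicate 2 and 241 on replicate 1, gave 1.07, past 2-fold. Scaling to the hybridisation controls turned the Sod1, Sod2 and Cat differences to -0.59, -0.37 and -0.12.

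In the thioredoxin system, the cytosolic carrier Txn1 had 11770 on replicate 2 and 13841 on replicate 1, a level of 13.64 ± 0.17 on the log2 scale (SD, n = 2). Its 2 probe sets differed in sign, at -0.23 and 0.14. The mitochondrial carrier Txn2 had 383 on replicate 2 and 248 on replicate 1 (log2 difference 0.63) on a probe set whose name ends in _x_at, a mark of probes that can bind other transcripts. A Txn2 probe set without that mark gave 0.99, from 256 on replicate 2 and 129 on replicate 1. The third Txn2 probe set was below background on both arrays, with 28.3 on replicate 2 and 88.1 on replicate 1. Txnip, whose product binds and inhibits thioredoxin and limits glucose uptake, had 7200 on replicate 2 and 10512 on replicate 1 (log2 difference -0.55), and its second probe set gave -0.47. Carrier and inhibitor genes of the cytosol were thus both above background in each experiment, and the inhibitor was lower on replicate 2 in both of its probe sets.

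Thioredoxin reductases, selenoproteins that recharge thioredoxin with NADPH, were read for 3 genes. Txnrd1, the cytosolic enzyme, had 818 on replicate 2 and 567 on replicate 1 (log2 difference 0.53), and the other 2 of its 3 probe sets were below background. Txnrd3, known in mouse as thioredoxin glutathione reductase of the testis, had 381 on replicate 2 and 517 on replicate 1 (log2 difference -0.44), from 1 of 3 probe sets. Txnrd2, the mitochondrial enzyme, had 90.8 on replicate 2 and 91.6 on replicate 1, below background on both arrays in all 4 probe sets. Srxn1, encoding sulfiredoxin, which repairs overoxidised peroxiredoxins, had 269 on replicate 2 and 246 on replicate 1, a level of 8.01 ± 0.09 on the log2 scale (SD, n = 2), while 3 further probe sets were not above background on both arrays.

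Glutaredoxins use glutathione to reduce protein disulfides or to carry iron-sulfur clusters. Glrx, the cytosolic enzyme, had 7305 on replicate 2 and 7636 on replicate 1, a 1.05-fold difference, and its second probe set gave a log2 difference of -0.08 beside -0.06. Glrx2, a mitochondrial and nuclear form, had 647 on replicate 2 and 673 on replicate 1, and all 3 of its probe sets lay between -0.20 and -0.06. Glrx5, needed for iron-sulfur cluster assembly in mitochondria, had 330 on replicate 2 and 227 on replicate 1 (log2 difference 0.54). Glrx3 had 12.0 on replicate 2 and 70.8 on replicate 1 on its own probe set, below background on both.

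The 3 genes of glutathione synthesis and reduction above background (Gsr, Gclm and Gss) were slightly lower on replicate 2. Gsr, encoding glutathione reductase, had 9722 on replicate 2 and 12303 on replicate 1, a level of 13.42 ± 0.24 on the log2 scale (SD, n = 2). Its 2 probe sets gave differences of -0.34 and -0.32. Gclm, the modifier subunit of the enzyme that limits glutathione synthesis, had 546 on replicate 2 and 627 on replicate 1 (-0.20), and its second probe set gave -0.45. Gclc, the catalytic subunit of the same enzyme, had 120 on replicate 2 and 57.0 on replicate 1, below background on both. Gss, encoding the enzyme of the second step, had 198 on replicate 2 and 225 on replicate 1 (-0.19) on an _x_at probe set, and its other probe set was below background on both arrays. The differences of Gclm, Gss and Gsr are smaller than the SD of all genes, 0.50.

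Glutathione transferases couple glutathione to other molecules. Mgst1, a microsomal enzyme that also reduces lipid peroxides, had 20404 on replicate 2 and 16955 on replicate 1, a level of 14.18 ± 0.19 on the log2 scale (SD, n = 2), whereas its other probe set was below background with 30.8 on replicate 2 and 29.9 on replicate 1. Mgst2, a related enzyme that can also make leukotriene C4, had 4079 on replicate 2 and 2698 on replicate 1 (log2 difference 0.60). Gstp1, the pi-class enzyme, had 945 on replicate 2 and 613 on replicate 1 (log2 difference 0.63). These 3 genes were higher on replicate 2 as deposited and lower after scaling to the hybridisation controls (-0.45 for Mgst1, -0.13 for Mgst2 and -0.10 for Gstp1). Mgst3 had 162 on replicate 2 and 177 on replicate 1, and its other probe set was below background on both arrays. Gsto1, the omega-class enzyme, had 299 on replicate 2 and 300 on replicate 1 on an _x_at probe set, and a probe set without that mark gave a difference of 0.24. Gstm1 had 171 on replicate 2, above background, and 104 on replicate 1, just below the background of 108, so no fold is given for it. Its log2 difference of 0.71 was about the 0.72 by which the hybridisation controls differed. Of its 4 probe sets, all but this one were below background on both arrays. Gstm1 belongs to a family of similar genes, so its probes may bind other members.

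Methionine sulfoxide reductases repair oxidised methionine in proteins, MSRA on one stereoisomer and the selenoprotein MSRB1 on the other. Msra had 3340 on replicate 2 and 3527 on replicate 1, a level of 11.74 ± 0.06 on the log2 scale (SD, n = 2). Msrb1 had 5971 on replicate 2 and 9283 on replicate 1, a log2 difference of -0.64, the most negative of the 29. Like Txnip, Msrb1 was lower on the array where Csf1r, the 3 macrophage genes that passed and the neutrophil receptor gene Cxcr2 were lower. These markers do not stand for their lists. Of the macrophage genes Vcam1 was nearly level (log2 difference -0.03), and 9 of 11 neutrophil markers were higher on replicate 2. Among the macrophage genes that did not pass, Mertk, C1qc, Mrc1 and Axl were higher on replicate 2, and C1qa, Cd5l and Siglec1 lower. The 7 monocyte genes without Csf1r summed to 757 on replicate 2 and 754 on replicate 1. The part of other or differently matured cells in the Txnip and Msrb1 differences was not tested.

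In the NRF2 axis all 3 genes were above background and close between the experiments. Nfe2l2, encoding NRF2, had 3817 on replicate 2 and 3593 on replicate 1, a level of 11.85 ± 0.06 on the log2 scale (SD, n = 2). Its second probe set, at 285 on replicate 2 and 388 on replicate 1, gave -0.45 where the brighter one gave 0.09. Keap1, encoding the adaptor that sends NRF2 for degradation, had 623 on replicate 2 and 581 on replicate 1, a 1.07-fold difference. The second Keap1 probe set was below background on both arrays, and the median over both probe sets gave -0.60 in place of 0.10. Nqo1, an NAD(P)H quinone reductase and a textbook NRF2 target, had 239 on replicate 2 and 276 on replicate 1 (-0.21).

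RefSeq promoter windows (GRCm38.p6), 250 bases before to 50 after a start site, were matched by symbol to 35 of the 40 genes and searched on both strands for TGANTCAGC, a form of the element that NRF2 binds with its small MAF partners. The motif was chosen with the sequences and the signals in view. It was found in 3 of 46 windows of these genes (6.52%) and in 390 of 32851 windows of all genes (1.19%). Because of that choice, these shares do not measure an enrichment. The motif lay in Gstp1, 74 bases before the start site, in Srxn1, 45 bases before it, and in Prdx1, 133 bases before it and on the opposite strand. These windows are shown because they hold the letters of that form of the element, and the capitals mark the match. The windows are chr19:4037863-4038162 on the minus strand for Gstp1, chr2:152105274-152105573 on the plus strand for Srxn1 and chr4:116685349-116685648 on the plus strand for Prdx1, each 5′ to 3′ along the gene. A match describes the sequence only, and no binding was measured here.
Gstp1: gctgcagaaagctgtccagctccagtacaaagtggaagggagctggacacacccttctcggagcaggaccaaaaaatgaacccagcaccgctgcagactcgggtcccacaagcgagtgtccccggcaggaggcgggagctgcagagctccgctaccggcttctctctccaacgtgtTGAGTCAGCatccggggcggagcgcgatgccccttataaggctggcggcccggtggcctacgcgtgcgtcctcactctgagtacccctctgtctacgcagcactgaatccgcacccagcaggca
Srxn1: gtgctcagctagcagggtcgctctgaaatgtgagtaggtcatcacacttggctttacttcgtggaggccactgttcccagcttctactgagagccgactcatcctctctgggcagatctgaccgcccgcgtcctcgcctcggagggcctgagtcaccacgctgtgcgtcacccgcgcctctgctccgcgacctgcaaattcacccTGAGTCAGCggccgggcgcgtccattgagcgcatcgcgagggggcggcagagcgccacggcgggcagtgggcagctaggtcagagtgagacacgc
Prdx1: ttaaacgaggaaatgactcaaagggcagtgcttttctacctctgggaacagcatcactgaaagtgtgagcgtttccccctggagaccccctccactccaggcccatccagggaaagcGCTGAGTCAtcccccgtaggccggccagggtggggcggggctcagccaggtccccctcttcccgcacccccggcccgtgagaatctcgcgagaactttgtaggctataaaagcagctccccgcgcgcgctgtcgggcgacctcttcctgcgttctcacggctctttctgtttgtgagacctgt
Of the genes with this motif, Gstp1 and Srxn1 were above background on both arrays, with the log2 differences of 0.63 and 0.13 given above.

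Several genes could be read on more than 1 probe set. Of the 29 genes above background 21 had several, and in 11 of these at least 1 probe set was not above background. In 13 genes 2 or more probe sets were above background on both arrays, and in 10 of them these agreed in the sign of the difference. The exceptions were Txn1, Gsto1 and Nfe2l2. The median gap between probe sets of a gene was 0.24 and the widest 0.53, in Nfe2l2, both on the log2 scale. Many of the differences above are of that size.

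**Figure D3:**
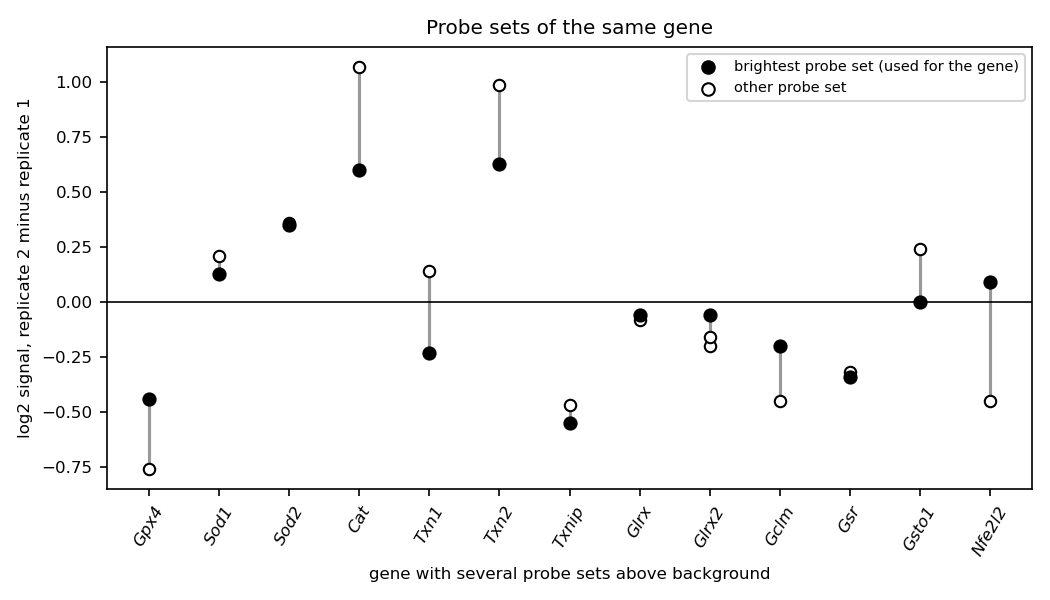
Log2 signal of replicate 2 minus replicate 1 for each probe set above background on both arrays, in the 13 genes that have 2 or more such probe sets; filled points are the brightest probe set of a gene and open points the others. Gpx4, Txnip, Gclm and Gsr lie below 0 in all their probe sets, and Sod1, Sod2, Cat and Txn2 above it.

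Other genes of these pathways were read from 5 lists of 108 genes, chosen with earlier results of these data known. Of 103 measured genes 60 (58.3%) were above background on both arrays, where 40.4% of all measured genes were. Among them 2 were over 2-fold higher on replicate 2, H6pd and Selenoo, and 1 over 2-fold higher on replicate 1, Sephs2. These are 3.33% and 1.67% of the 60 genes, near the 3.43% and 1.97% of all genes. The genes that supply NADPH passed in 7 of 9, among them Pgd of the pentose phosphate pathway (17159 on replicate 2 and 14497 on replicate 1) and the cytosolic isocitrate dehydrogenase gene Idh1 (2489 and 2208, in the same order). H6pd, which makes NADPH inside the endoplasmic reticulum, had 474 on replicate 2 and 211 on replicate 1, a 2.24-fold difference. G6pdx was not analysed here.

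The list with the lowest share was that of other glutathione genes, with 8 of 31 above background (25.8%). It holds mainly further transferases, peroxidases and enzymes of glutathione turnover. Gpx2 (14 on replicate 2 and 22.3 on replicate 1), Gpx5 (65.4 and 65.3) and Gpx6 (59.5 and 63.7) were all below background. Of the other thioredoxin-fold and repair genes 20 of 24 passed, including Txndc9 (2114 on replicate 2 and 1246 on replicate 1), while Txndc5 and Txndc11 did not.

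Of the other NRF2 regulators and targets 13 of 21 passed. Hmox1, the inducible heme oxygenase, had 441 on replicate 2 and 744 on replicate 1 (log2 difference -0.75). Hmox2, the constitutive form, had 861 on replicate 2 and 896 on replicate 1. Blvra, whose product turns biliverdin into bilirubin, had 222 on replicate 2 and 146 on replicate 1. Selenoproteins and the genes that make them passed in 12 of 18. Sephs2, which makes the selenium donor for selenocysteine and is itself a selenoprotein, had 1457 on replicate 2 and 3129 on replicate 1, a 2.15-fold difference in favour of replicate 1. Sephs1, its paralogue, had 294 on replicate 2 and 159 on replicate 1 (0.89), and Selenoo, a mitochondrial selenoprotein, had 877 on replicate 2 and 400 on replicate 1 (1.13). Secisbp2, which binds the selenocysteine element of mRNAs, had 338 on replicate 2 and 317 on replicate 1.

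**Figure D4:**
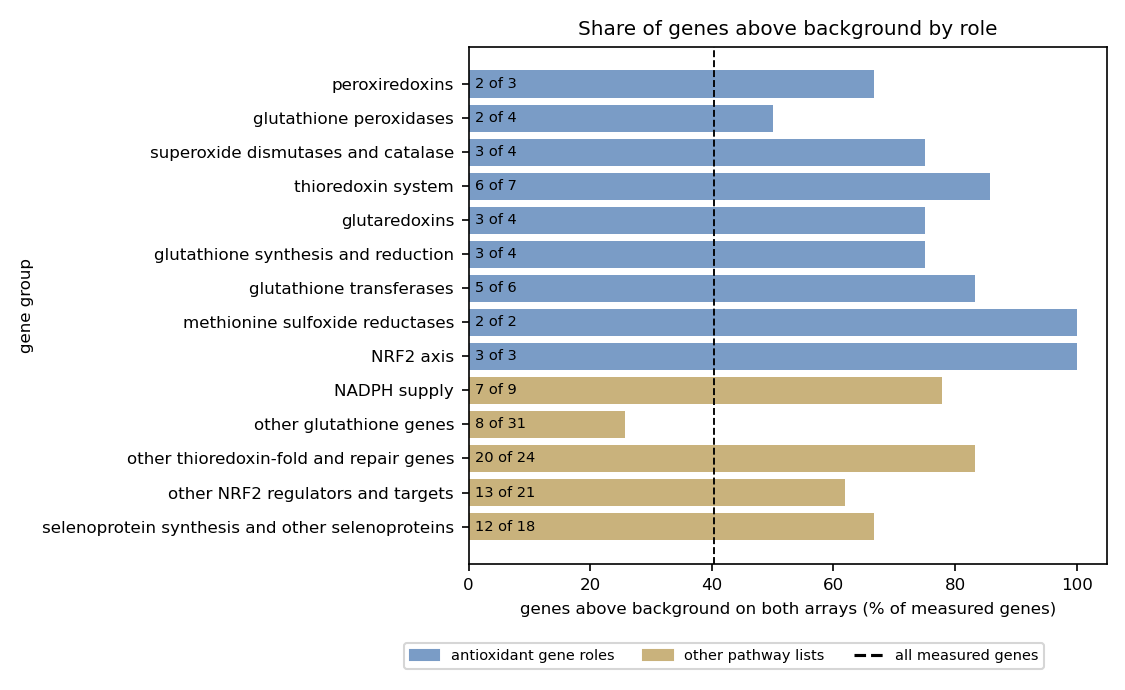
Percentage of measured genes above background on both arrays for the 9 roles of the antioxidant genes (blue) and the 5 other pathway lists (tan), with the counts in the bars; the dashed line is the share of all measured genes (40.4%). All groups except the other glutathione genes (25.8%) reach past the line.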

How the data were processed

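Linear intensities of 45101 probe sets on 2 arrays were deposited. The authors made these intensities with MAS5, per the submitters' processing notes, which give no version or settings here. The mean without the lowest and highest 2% of signals was 250.0 on both arrays, so brightness had been equalised before deposit and differences are relative to that. GEO's platform annotation gave 1 gene to 34958 probe sets and several to 932, and 9211 were unnamed here. Signals below 1 were set to 1 and log2 taken with pandas 2.3.3 and numpy 2.4.6 in Python 3.11.15. A gene passed background where 1 or more of its probe sets exceeded the 95th percentile of 87 sensory receptor probe sets on both arrays, and its level is that of its brightest probe set. A trial of the procedure on simulated data used planted differences larger than any of the antioxidant genes above background, and less spread between arrays. It therefore does not show how well differences of the size reported here are found. No test of groups was possible with 1 group, so none was run, and the number of arrays limits the precision. The labels call the experiments independent. The genes, lists and pathway genes were chosen with earlier results of these data known. Named are all measured genes of the list and, of each pathway list, the first 3 genes and those over 2-fold between the arrays; marker lists are given by counts and sums, with single genes chosen after their values were seen. Alternatives were other background percentiles, other scalings, 32 added to the signal, no background filter, the median over probe sets, and no _x_at or _s_at probe sets.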

Additional observations from a re-analysis of the deposited data

Results flagged for a closer look

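Some probe sets outside the gene counts above name 1 of these genes together with a second gene, so their signal cannot be given to either. All 5 probe sets assigned to Prdx1 and the pseudogene Gm21399 passed background on both arrays, reading 405 to 1109 on replicate 2 against 313 to 675 on replicate 1. Their log2 differences of replicate 2 minus replicate 1 lay between 0.19 and 0.91. Of the 4 probe sets assigned to Glrx3 and the pseudogene Gm12669, 1 was above background on both arrays, with 414 on replicate 2 and 224 on replicate 1, whereas the probe set of Glrx3 alone was below it. Probe sets of the same genes are not separate observations.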

How the results depend on the processing

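The count of antioxidant genes above background was 29 of 37, where 40.4% of all genes passed. It was 30 with the 90th percentile of the background probe sets (45.4% of all genes) and 27 with the 99th (32.7%). With the median over probe sets it was 23 (33.3% of all genes). Without _x_at and _s_at probe sets it was 28 (38.9% of all genes), and Gss was lost. On replicate 2 alone the count was 30 (44.2% of all genes) and on replicate 1 alone 29 (46.3%). The count over 2-fold higher on replicate 2, 1 gene, was 0 with 32 added to the signal and 0 after scaling to the hybridisation controls. Of all 7354 genes above background 171 and 33 were, in the same order. With no filter on background the count was 3 of 37, where 2823 of all 18194 genes were. These 3 were Prdx3 and the genes Gpx7 and Gclc, both below background on both arrays. The count over 2-fold higher on replicate 1, 0 genes, was 1 with no filter, where 2108 of all 18194 genes were. That gene was Glrx3, below background on both arrays. After scaling to the hybridisation controls the count was 5 (Gpx4, Txnip, Txnrd3, Gsr and Msrb1). Those 5 are 17.2% of the 29 genes, where 21.1% of all genes passed 2-fold in that direction under that scaling. The median difference, 0.09, moved to -0.63 with hybridisation control scaling, where that of all genes was -0.65, since the 18 control probe sets were higher by 0.72 on replicate 2. With median scaling it was -0.04 and with the median over probe sets -0.05. The hybridisation control and median scalings move all genes by 1 amount each, so they show nothing about the order of genes. Among the genes that still passed under the other alternatives, Keap1 alone moved by more than the SD of all genes, to -0.60 with the median over probe sets. Only 23 genes passed with that median. Prdx2, Sod1, Txnrd1, Txnrd3, Srxn1 and Mgst3 did not, so their differences were not assessed there. No paired analysis was possible because the design holds 1 group. Dim genes are limited by background, and Prdx2, Prdx3, Mgst3 and Gss lie near it.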

Other observations

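Grouped by the site of their products, a grouping made after the values were seen, 5 of 6 measured genes for mainly mitochondrial proteins were above background, and 4 of these 5 were higher on replicate 2. Their median log2 difference was 0.54 (range -0.06 to 1.15). They were Prdx3, Txn2, Glrx5, Sod2 and Glrx2, with Glrx2 the lower one, and after scaling to the hybridisation controls Txn2, Glrx5 and Sod2 were also lower on replicate 2. Of all genes 40.4% were above background, and of these 56.3% were higher on replicate 2, with a median of 0.07 as deposited. Of 7 measured selenoprotein genes of the antioxidant list 5 were above background, with 2 higher on replicate 2 (Gpx1 and Txnrd1), 3 lower (Gpx4, Txnrd3 and Msrb1) and a median of -0.44, to be read beside the same shares. Neither group was tested.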
